A study of Mus musculus with 9 samples.

Results

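The comparison described here set the livers of Dgat1-/- mice fed ad libitum (Dgat1-/-AL) against those of wild-type mice fed ad libitum (WTAL), and asked which liver mRNAs differed when Dgat1 was lost and food intake was not limited. It used 6 of the 9 arrays of the series, the 3 labelled Dgat1-/- and the 3 labelled wild-type on the ad libitum diet. All 21780 of 28815 probe sets that carry 1 gene symbol were examined, and these stand for 19935 distinct symbols. The remaining 3 arrays came from calorie-restricted wild-type mice (WTCR), and they entered the model only to help estimate the spread between mice. All animals were females aged 15 to 16 months on a C57BL/6J background. They lived in a pathogen-free barrier facility under 12 h of light and 12 h of dark, and ate PicoLab rodent chow. Each array held the liver RNA of 1 mouse, measured on the Affymetrix Mouse Gene 1.0 ST array. The mutation is present in every tissue and from conception, so these arrays cannot separate a direct effect of losing the enzyme in hepatocytes from one that reaches the liver from elsewhere.

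DGAT1 is an enzyme of the endoplasmic reticulum that joins a fatty acyl-CoA to diacylglycerol, the last step of triglyceride synthesis, and it can also esterify retinol and other alcohols. DGAT2, an unrelated protein, catalyzes the same step, and in hepatocytes the triglyceride made by both enzymes is stored in lipid droplets or secreted in very low density lipoprotein (VLDL). The liver holds hepatocytes together with Kupffer cells, which are its resident macrophages, sinusoidal endothelial cells, stellate cells and passing leukocytes. An array of whole liver reads their summed RNA, so fewer cells of a type and less RNA per cell cannot be told apart.

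Values are log2 signals after robust multi-array average (RMA) normalization, given below for replicates 1, 2 and 3 in that order. Dgat1 read 7.86, 5.67 and 8.05 in the WTAL arrays and 6.14, 5.84 and 5.39 in the Dgat1-/-AL arrays. The array labelled WTAL replicate 2 therefore lay among the Dgat1-/-AL arrays for the targeted gene and went against its label. On the log2 scale Dgat1-/-AL minus WTAL was -1.41, with a standard error (SE) of 0.55 (n = 3 mice in each group), and -2.34 without that array and Dgat1-/-AL replicate 1. The call ended on dropping either Dgat1-/-AL replicate 2 or 3 or either of the other WTAL arrays, with values from -2.17 to -0.98 over the 9 arrays dropped singly. Signal was present in all Dgat1-/-AL arrays, and whether the probes of the single Dgat1 probe set lie inside the deleted part of the gene is not given in the sources used here. Dgat2 read 10.84, 11.15 and 11.21 in WTAL livers and 11.40, 10.88 and 10.98 in Dgat1-/-AL livers. These ranges overlapped (log2 fold change 0.02 ± 0.18).

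Among the Dgat1-/-AL arrays, replicate 1 stood apart. It had 190 genes more than 1 log2 unit above the WTAL mean and 37 more than 1 unit below it, against 11 and 6 in replicate 2 and 21 and 18 in replicate 3. A single WTAL array compared with the mean of the other WTAL arrays gave 11 to 22 genes above and 14 to 25 below by the same measure. Values below come from the fit of every array unless another fit is named. For the lists with the most calls, the counts with these doubted arrays dropped, singly and together, are set beside them.

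Calls were made where the fold exceeded 1.3 with a limma p below 0.05 before adjustment, and every error given after ± is an SE of the log2 fold change with 3 mice in each group. With all arrays 110 probe sets were called higher and 159 lower, together 1.24% of those with 1 symbol. Counted once per gene, 100 genes (0.502%) were called higher and 123 (0.617%) lower. On dropping the array labelled WTAL replicate 2 these shares became 0.552% and 0.978%, without Dgat1-/-AL replicate 1 they were 0.732% and 0.918%, and without both they were 0.813% and 1.1%. The number called lower grew from 159 to 254 probe sets when the array labelled WTAL replicate 2 was left out, and to 256 without Dgat1-/-AL replicate 2. That called higher grew from 110 to 175 without Dgat1-/-AL replicate 1, and to 269 without Dgat1-/-AL replicate 2. No probe set reached an adjusted p under 0.05 in limma with all arrays, where the smallest adjusted p was 0.961. At an unadjusted p under 0.05 there were 1316 of 28815 probe sets, against the 1441 that make up 5%. The calls below are thus a description of these 6 livers, ordered by gene function, and none of them is supported by an adjusted p.

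Of the 269 probe sets called with all arrays, 86 were higher and 128 lower with no overlap between the groups. Over all genes, every Dgat1-/-AL array lay above every WTAL array for 3.55%, and below every WTAL array for 3.76%. The calls of 74 probe sets, 31 higher and 43 lower, held in each of the 9 fits that left out 1 array. In the 4 fits that kept or left out the array labelled WTAL replicate 2 and Dgat1-/-AL replicate 1, 119 were called throughout, 33 of them higher and 86 lower.

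The arrays were also placed by the probe sets that the other arrays called. Each of the 6 arrays was left out in turn, and its signal was compared with the means of the arrays that remained in each group. Held-out Dgat1-/-AL arrays lay nearer the Dgat1-/-AL mean than the WTAL mean at 36.8%, 34.7% and 45.9% of the probe sets called without them. For held-out WTAL arrays the shares were 50.5%, 58.2% and 30.4%, the highest being that of the array labelled WTAL replicate 2. Over all probe sets with 1 symbol the shares were 43.2%, 40.8% and 44.6% for the Dgat1-/-AL arrays. For the WTAL arrays they were 46.4%, 50.6% and 50.4%. The probe sets were picked by the other arrays, so these shares use only an array that the choice did not use. At most of the probe sets called without it, a Dgat1-/-AL array lay nearer the WTAL mean, as it did over all probe sets. The mean of its own group rested on fewer arrays than the other mean, and those arrays had picked the probe sets. This alone can draw a held-out array toward the other group, so no conclusion is drawn from the shares.

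**Figure D1:**
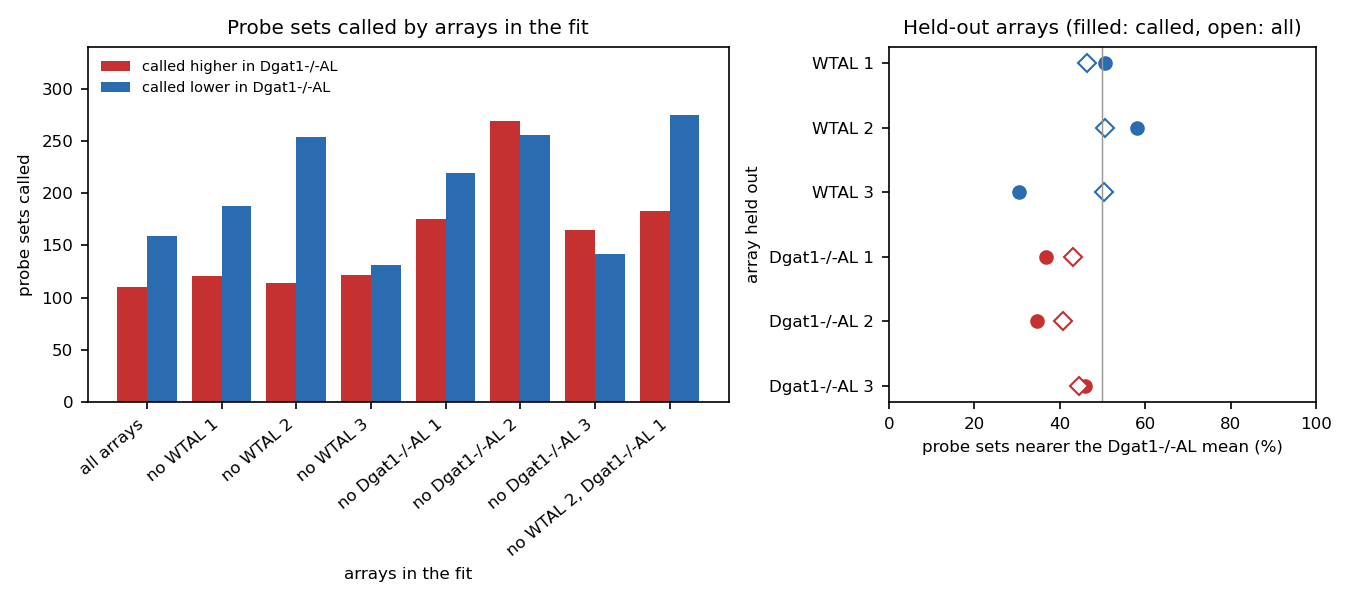
Left, number of probe sets with 1 symbol (y axis) called higher (red) or lower (blue) in Dgat1-/-AL, by the arrays in the fit (x axis). With all arrays there were 110 and 159, and the counts were highest without Dgat1-/-AL replicate 2 (269 higher) and without both doubted arrays (275 lower). Right, for each array held out (y axis), the percentage of probe sets nearer the Dgat1-/-AL mean (x axis) among those called without it (filled) and among all probe sets (open).

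Among genes whose groups did not overlap, Serpina7 changed most. It encodes thyroxine-binding globulin, a plasma carrier of thyroid hormone, and read 8.08, 9.53 and 8.32 in WTAL livers and 11.64, 9.81 and 10.59 in Dgat1-/-AL livers. The array labelled WTAL replicate 2 was the highest of its group and lay just below the lowest Dgat1-/-AL array. Serpina7 was 4.10-fold higher (log2 fold change 2.04 ± 0.53), and 2.0 without both arrays. Prg4, which encodes the secreted proteoglycan lubricin, read 7.15, 7.32 and 7.22 against 9.46, 8.30 and 8.11. Its WTAL arrays were close together, and all Dgat1-/-AL arrays were higher (1.40 ± 0.29). Bcl6, a transcriptional repressor, read 5.49, 5.50 and 5.43 against 6.90, 5.94 and 6.15 (0.86 ± 0.24), again with replicate 1 the highest. Plxnc1, a semaphorin receptor, read 7.14, 7.16 and 7.19 against 8.23, 8.09 and 7.63 (0.82 ± 0.18). The calls of these 4 genes held without any 1 array. Slc22a7, an organic anion transporter of hepatocytes, gave 0.99 ± 0.42, but this call ended on dropping any array but WTCR replicate 2 and Dgat1-/-AL replicate 2 (0.59 to 1.32).

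Among the genes that were lower, Id3, which binds E proteins and keeps them from DNA, read 9.18, 9.01 and 9.72 in WTAL livers and 8.27, 8.31 and 7.93 in Dgat1-/-AL livers. All Dgat1-/-AL arrays lay below all WTAL arrays (-1.13 ± 0.24, and -1.33 without both arrays). Gas5, a noncoding RNA gene that hosts small nucleolar RNAs in its introns, read 6.29, 6.30 and 6.76 against 5.80, 5.43 and 4.96 at 1 of its 4 probe sets (-1.05 ± 0.21). The other Gas5 probe sets gave -0.27, -0.32 and -0.23 and were not called. Fabp5, an intracellular fatty acid-binding protein, read 8.50, 7.50 and 8.56 against 7.13, 7.32 and 6.60 at the brighter of its probe sets, both of which were called (-1.18 ± 0.30). The array labelled WTAL replicate 2 lay nearer the Dgat1-/-AL arrays than its own group here, and the value was -1.57 without both arrays. Snord14e, a small nucleolar RNA, gave -0.78 ± 0.25, a call that ended without Dgat1-/-AL replicate 2 (-0.65). Ifi27l2a, an interferon-induced gene, read 6.82, 7.33 and 7.15 against 6.19, 6.38 and 6.36 (-0.79 ± 0.17), with no overlap.

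**Figure D2:**
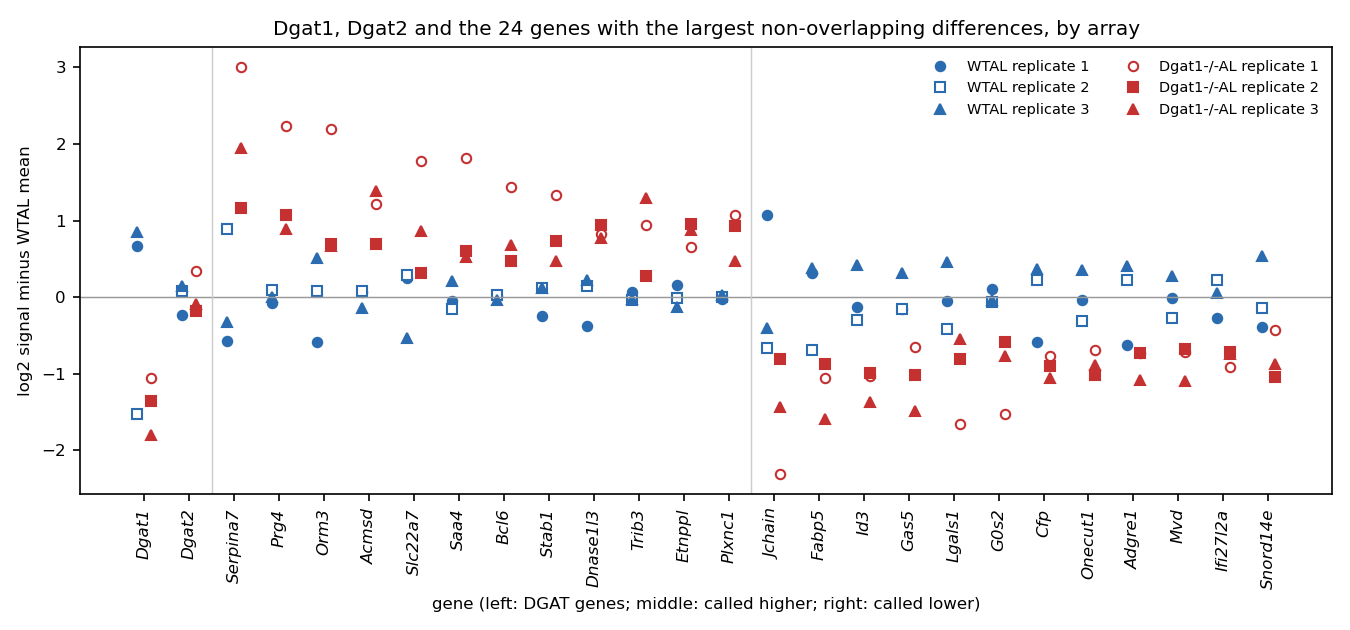
Log2 signal minus the WTAL mean (y axis) of Dgat1, Dgat2 and the 24 genes that differed most among those called with no overlap between groups (x axis). Each point is 1 array, blue for WTAL and red for Dgat1-/-AL, with open symbols for the array labelled WTAL replicate 2 and for Dgat1-/-AL replicate 1. The open blue square of Dgat1 lies among the red points, and the open red circle is the highest point for 8 of the 12 genes called higher.

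Of 16 measured genes of triglyceride synthesis, 1 was called higher and Dgat1 itself lower. Agpat2, which makes phosphatidic acid, read 10.63, 10.91 and 10.87 against 11.48, 10.99 and 11.23, with no overlap (0.43 ± 0.14). That call ended without WTAL replicate 1 (0.34) or Dgat1-/-AL replicate 1 (0.31). Gpam, the mitochondrial glycerol-phosphate acyltransferase, gave -0.23 ± 0.17, and the phosphatidate phosphatases Lpin1 and Lpin2 gave -0.05 ± 0.19 and 0.10 ± 0.19. None of these 3 was called. The median of the list was -0.01, against 0.001 for all genes.

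Of 23 measured genes of the lipid droplet 1 was called higher (4.35%, against 0.502% of all genes) and 2 lower (8.7%, against 0.617%). G0s2, an inhibitor of adipose triglyceride lipase, read 9.44, 9.25 and 9.28 in WTAL livers and 7.80, 8.73 and 8.55 in Dgat1-/-AL livers. The groups did not overlap, replicate 1 was the lowest (-0.96 ± 0.21), and the call held without any 1 array. Pnpla3, a lipid droplet acyl hydrolase that responds to feeding, read 6.34, 6.90 and 8.22 against 6.09, 6.34 and 6.15. Its difference of -0.96 ± 0.39 came largely from 1 high array, WTAL replicate 3, and Dgat1-/-AL replicate 2 reached the lowest WTAL value. The Pnpla3 call ended without any 1 of the Dgat1-/-AL or WTCR arrays (-1.36 to -0.42 over all 9 arrays left out). Fitm1, which promotes droplet formation, was called higher (0.53 ± 0.19), with overlap, a call that ended on dropping Dgat1-/-AL replicate 1 or 3 as well as WTAL replicate 1 or 3 (0.38 to 0.70). The droplet coat protein Plin2 and the lipase Pnpla2 were not called, at -0.03 ± 0.31 and 0.15 ± 0.33.

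Of 21 genes of fatty acid synthesis, 1 was called in each direction. Acss2, which activates acetate to acetyl-CoA, read 11.27, 11.23 and 11.59 against 10.50, 11.02 and 10.64 with no overlap (-0.65 ± 0.25). Elovl3, a fatty acid elongase, read 5.33, 5.15 and 4.86 against 5.85, 5.72 and 5.33, so that Dgat1-/-AL replicate 3 met WTAL replicate 1 (0.52 ± 0.15). The Acss2 call ended on dropping Dgat1-/-AL replicate 1 or 3, or WTAL replicate 3 (-0.80 to -0.53), and neither gene was called without both doubted arrays. Fasn, Scd1, Acly and the regulator Srebf1 gave 0.37 ± 0.40, 0.04 ± 0.25, -0.22 ± 0.19 and 0.10 ± 0.29. Of 33 genes of fatty acid oxidation and ketogenesis, Cyp4a14, a fatty acid hydroxylase, was the one called (0.42 ± 0.17, with overlap). Its call ended without Dgat1-/-AL replicate 1, WTAL replicates 1 or 3, and WTCR replicates 2 or 3 (0.26 to 0.58).

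Cholesterol is made from acetyl-CoA through mevalonate, farnesyl diphosphate, squalene and lanosterol, and in hepatocytes the enzymes of the chain are transcribed together under the SREBP2 factor. Of 18 measured genes of this chain 8 were called lower in Dgat1-/-AL livers (44.4%, against 0.617% of all genes) and 0 higher. All 18 log2 fold changes were below 0, with a median of -0.39. Averaged over the 18 genes, the difference from the WTAL mean was 0.10, -0.19 and 0.09 in the WTAL arrays and -0.30, -0.27 and -0.52 in the Dgat1-/-AL arrays. Each Dgat1-/-AL array lay below each WTAL array, and the array labelled WTAL replicate 2 was the WTAL array nearest to them. For 6 of the 18 genes all Dgat1-/-AL arrays lay below all WTAL arrays, a pattern seen in 3.76% of all genes. The direction of this list was known from earlier results on these same arrays, so the counts are not independent evidence of it.

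Along the chain, Hmgcs1, which makes HMG-CoA, read 12.80, 12.20 and 12.60 in WTAL livers and 11.83, 12.30 and 11.75 in Dgat1-/-AL livers (-0.58 ± 0.20). Pmvk, the phosphomevalonate kinase, read 9.30, 8.94 and 9.47 against 8.62, 8.91 and 8.83 (-0.45 ± 0.14). In both genes the array labelled WTAL replicate 2 was the lowest of its group, and for Hmgcs1 it lay below Dgat1-/-AL replicate 2. Mvd, the mevalonate diphosphate decarboxylase, read 8.89, 8.63 and 9.18 against 8.19, 8.23 and 7.81 (-0.83 ± 0.18). Fdps, the farnesyl diphosphate synthase, read 11.15, 10.71 and 11.32 against 10.59, 10.56 and 10.07 (-0.66 ± 0.18). Sqle, the squalene epoxidase, read 10.21, 9.86 and 10.10 against 9.72, 9.71 and 9.18 (-0.52 ± 0.15). These 3 genes had no overlap.

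Further on, Lss, the lanosterol synthase, read 8.58, 8.13 and 8.88 in WTAL livers and 8.37, 7.84 and 7.54 in Dgat1-/-AL livers, and the groups overlapped at the array labelled WTAL replicate 2 (-0.62 ± 0.24). Without both arrays Lss was the gene of the list with the largest value, -1.04. Hsd17b7, which acts on zymosterone, gave -0.42 ± 0.14 and Fdft1, the squalene synthase, gave -0.47 ± 0.15 at its brighter probe set, both with no overlap. A dimmer Fdft1 probe set was also called (-0.45 ± 0.16). The genes not called ranged from -0.40 ± 0.24 (Idi1, the isopentenyl diphosphate isomerase) to -0.04 ± 0.24 (Dhcr7, the reductase of the final step). The calls of Mvd and Fdps stood in all 9 fits that dropped 1 array. Dropping an array ended those of Hmgcs1 and Lss (Dgat1-/-AL replicate 3, WTAL replicate 1 or WTAL replicate 3, with Dgat1-/-AL replicate 1 as well for Hmgcs1 and replicate 2 for Lss), Fdft1 (WTAL replicate 1), Hsd17b7 (WTAL replicate 1 or Dgat1-/-AL replicate 3), Pmvk (WTAL replicate 3 or Dgat1-/-AL replicate 1) and Sqle (Dgat1-/-AL replicate 3). The number called lower was 10 without the array labelled WTAL replicate 2, 6 without Dgat1-/-AL replicate 1, and 9 without both. It was 4 on dropping Dgat1-/-AL replicate 3 and also 4 on dropping WTAL replicate 1, and 5 on dropping WTAL replicate 3.

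**Figure D3:**
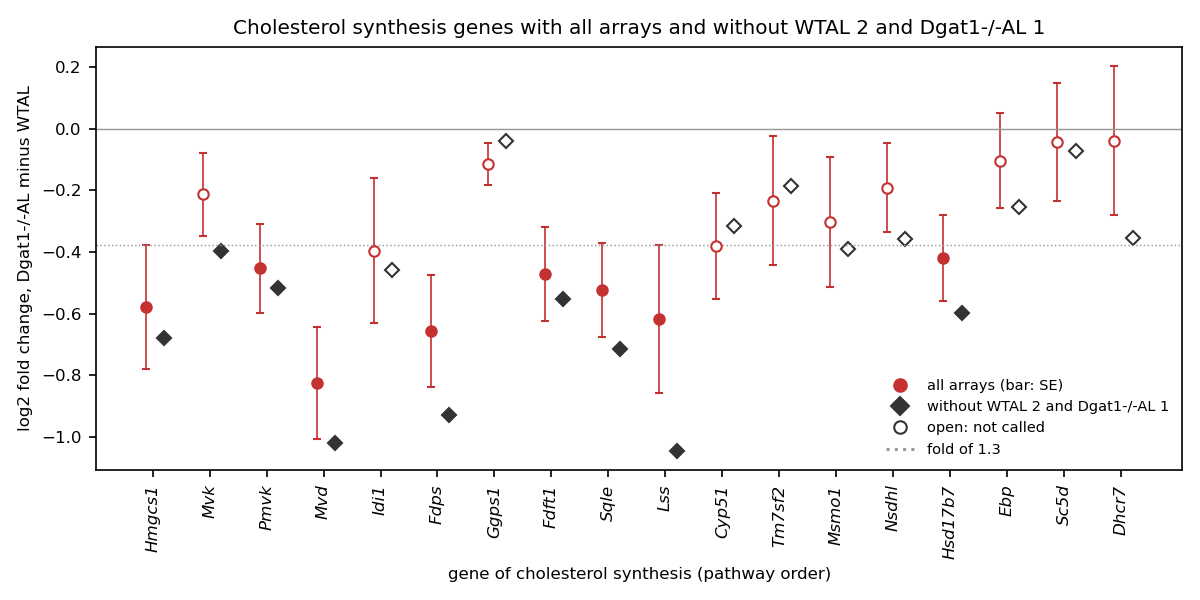
Log2 fold change of Dgat1-/-AL against WTAL (y axis) for the 18 measured genes of cholesterol synthesis in pathway order (x axis). Red circles are the fit of all arrays with bars for the standard error (n = 3 mice per group), and diamonds are the fit without the array labelled WTAL replicate 2 and Dgat1-/-AL replicate 1, with filled symbols for genes called in that fit. All 18 circles lie below 0, 8 of them filled, and 9 diamonds are filled.

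Promoters of 4 of the genes called lower in this chain are shown because their transcription is known to be coordinated. They were taken from RefSeq on GRCm38.p6 and run from 250 bases before the transcription start to 50 after it, on the strand of the gene. Capitals mark the CCAAT box, bound by NF-Y (CCAAT, or ATTGG on the opposite strand), and the letters CACNCCAC of the sterol regulatory element (or GTGGNGTG). These motifs do not share letters where they occur below.
Hmgcs1 (chr13:119690101-119690400, plus strand): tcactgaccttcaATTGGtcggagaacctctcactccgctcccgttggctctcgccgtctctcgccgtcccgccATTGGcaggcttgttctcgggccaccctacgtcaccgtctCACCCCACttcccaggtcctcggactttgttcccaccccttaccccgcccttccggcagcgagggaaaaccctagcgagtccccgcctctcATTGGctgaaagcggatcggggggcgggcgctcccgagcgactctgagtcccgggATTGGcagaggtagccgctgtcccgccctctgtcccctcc
Mvd (chr8:122443373-122443672, minus strand): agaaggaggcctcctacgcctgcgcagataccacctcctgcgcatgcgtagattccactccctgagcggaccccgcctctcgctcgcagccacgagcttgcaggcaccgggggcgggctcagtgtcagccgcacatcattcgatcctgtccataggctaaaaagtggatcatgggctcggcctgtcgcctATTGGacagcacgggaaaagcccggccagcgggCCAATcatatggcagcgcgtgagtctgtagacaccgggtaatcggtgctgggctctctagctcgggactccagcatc
Lss (chr10:76531355-76531654, plus strand): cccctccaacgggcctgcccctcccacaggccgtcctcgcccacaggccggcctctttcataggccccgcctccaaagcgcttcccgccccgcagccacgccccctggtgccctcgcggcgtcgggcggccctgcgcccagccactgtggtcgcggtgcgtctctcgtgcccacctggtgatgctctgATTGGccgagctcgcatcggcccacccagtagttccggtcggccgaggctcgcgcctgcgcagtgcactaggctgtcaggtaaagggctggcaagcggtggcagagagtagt
Hsd17b7 (chr1:169969156-169969455, minus strand): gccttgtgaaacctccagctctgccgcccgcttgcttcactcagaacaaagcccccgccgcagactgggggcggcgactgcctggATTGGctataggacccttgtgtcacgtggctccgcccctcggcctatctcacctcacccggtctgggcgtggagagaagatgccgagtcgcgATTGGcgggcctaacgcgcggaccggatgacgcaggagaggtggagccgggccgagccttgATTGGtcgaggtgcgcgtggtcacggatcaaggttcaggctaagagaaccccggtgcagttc

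The set of promoters held 15 of the 18 genes, matched by gene identifier. Fdps, Fdft1 and Sqle had no entry. All 15 had a CCAAT box in at least 1 of their promoters, both the 5 called lower and the 10 not called, against 41.1% of all 27025 genes with a promoter. The letters CACNCCAC were in 1 of the 15, Hmgcs1, against 7.12% of all genes. A match of letters is a description of the window and does not show that a factor binds there.

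Genes that sense and move sterols were not called. Of 17 measured genes of sterol sensing, uptake and efflux 0 were called in either direction. Over all genes 0.502% were called higher and 0.617% lower, so this 0 does not tell whether they were unchanged. Insig1, which retains SREBP in the endoplasmic reticulum, gave -0.10 ± 0.14, Insig2 gave 0.38 ± 0.16, and Srebf2 gave 0.11 ± 0.25. Srebf2 read 8.60 in Dgat1-/-AL replicate 1 and between 7.53 and 7.85 in the other 5 arrays. Cyp7a1, the rate-limiting enzyme of bile acid synthesis, read 11.79, 11.93 and 12.21 in WTAL livers and 10.63, 11.73 and 11.38 in Dgat1-/-AL livers. It was the 1 gene of 22 in bile acid synthesis and transport that was called (-0.73 ± 0.25), with no overlap and with replicate 1 the lowest. The Cyp7a1 call ended without WTAL replicate 3 (-0.62) and without both doubted arrays (-0.45). Cyp8b1, which sets the share of cholic acid, gave -0.10 ± 0.35.

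Genes of gluconeogenesis and glucose handling gave 1 call in each direction of 23 measured. Ppp1r3b, which brings protein phosphatase to glycogen, read 9.02, 9.16 and 9.04 in WTAL livers and 7.95, 8.81 and 8.18 in Dgat1-/-AL livers, with no overlap (-0.76 ± 0.19). Insr, the insulin receptor, read 8.86, 8.74 and 9.08 against 9.82, 9.22 and 9.40 at 1 probe set (0.59 ± 0.18). The other Insr probe set was not called (0.37 ± 0.30). Both calls held without any 1 array, and that of Insr ended without both doubted arrays (0.34). Pck1 and G6pc, which encode enzymes of gluconeogenesis, gave 0.67 ± 0.33 and 0.38 ± 0.34. Angptl8, a hepatokine induced by insulin that inhibits lipoprotein lipase, was the only called gene of 17 in the list of apolipoproteins and VLDL assembly. It read 7.60, 8.91 and 8.69 against 7.60, 7.63 and 7.71, so that WTAL replicate 1 lay with the Dgat1-/-AL arrays. Its difference of -0.75 ± 0.28 lost the call on dropping any Dgat1-/-AL array, WTAL replicate 3, or the array labelled WTAL replicate 2 (-1.15 to -0.50 over all 9).

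Of 14 genes of the growth hormone and IGF1 axis 0 were called with all arrays. Over all genes 0.502% were called higher and 0.617% lower, so this 0 does not tell whether the axis was unchanged. Igf1 read 11.32, 10.99 and 11.16 in WTAL livers and 11.18, 11.22 and 10.84 in Dgat1-/-AL livers, and the groups overlapped (-0.08 ± 0.15). Igfbp1 ranged from 7.12 to 10.35 within the WTAL group alone. Without Dgat1-/-AL replicate 1, 3 of the 14 were called lower, against 0.918% of all genes in that fit. Among them were Igfals, the acid-labile subunit that carries IGF1 in plasma (-0.48), and Socs2, a feedback inhibitor of growth hormone signaling (-0.47).

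The list of amino acid breakdown and the urea cycle had more values above 0 than below. Of 29 measured, 3 were called higher (10.3%, against 0.502% of all genes) and 0 lower. Of the 29, 23 had a log2 fold change above 0, and the median was 0.13. The number called higher ran from 1 to 4 on dropping 1 array. Etnppl had the largest value of the 3, but it encodes a phospho-lyase that breaks down phosphoethanolamine, not an amino acid. It read 9.05, 8.88 and 8.77 in WTAL livers and 9.56, 9.85 and 9.78 in Dgat1-/-AL livers. It had no overlap, its call held without any 1 array (0.83 ± 0.17), and the value was 0.90 without both. Agxt2, a mitochondrial aminotransferase, gave 0.42 ± 0.17, and Aass, the first enzyme of lysine breakdown, gave 0.39 ± 0.14. Both calls ended on dropping Dgat1-/-AL replicate 3 or WTAL replicate 3, that of Agxt2 also without Dgat1-/-AL replicate 2 (0.24 to 0.56) and that of Aass without WTAL replicate 1 (0.35 to 0.43). Cps1, which starts the urea cycle, read 13.23, 13.23 and 13.08 against 13.53, 13.32 and 13.37. Its arrays did not overlap, but the fold was under 1.3 (0.23 ± 0.10) and it was not called.

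The route from tryptophan to NAD branches at aminocarboxymuconate semialdehyde, where Acmsd, a decarboxylase, turns the intermediate away from NAD. Acmsd read 7.72, 7.74 and 7.52 in WTAL livers and 8.88, 8.36 and 9.05 in Dgat1-/-AL livers. The WTAL arrays lay close together and below all Dgat1-/-AL arrays (1.10 ± 0.22), and the call held without any 1 array and without both (1.08). Aadat, an aminotransferase of kynurenine, was the other called gene of 19 in this list (10.5% higher, against 0.502% of all genes). It gave 0.47 ± 0.19 with no overlap, but the call ended on dropping Dgat1-/-AL replicate 1 or 3 or any 1 of the WTAL arrays (0.31 to 0.60). Nampt, which recycles nicotinamide to NAD, gave -0.30 ± 0.15, and Tdo2, Kmo and Qprt of the tryptophan route gave 0.38 ± 0.18, -0.02 ± 0.08 and -0.02 ± 0.10, and none of these was called with all arrays.

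Genes of the amino acid response moved in both directions. Trib3, a pseudokinase induced by ATF4, read 6.77, 6.66 and 6.68 in WTAL livers and 7.64, 6.98 and 8.0 in Dgat1-/-AL livers (0.83 ± 0.23). Cth, which makes cysteine from cystathionine, read 12.50, 12.67 and 12.39 against 12.99, 12.96 and 13.14 (0.51 ± 0.12). In both the groups did not overlap and the calls held without any 1 array, that of Trib3 ending without both. Atf4 itself read 8.47, 8.57 and 8.50 against 8.08, 8.07 and 8.18, lower with no overlap (-0.40 ± 0.07), a value close to the fold limit that was no longer called without the array labelled WTAL replicate 2 (-0.38). Asns, an ATF4 target, gave 0.00 ± 0.06 at signals between 4.34 and 4.43. Of the 25 genes 2 were called higher (8.0%, against 0.502% of all genes) and 1 lower (4.0%, against 0.617%).

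Part of the markers of Kupffer cells and macrophages were lower. Of 24 measured, 7 were called lower (29.2%, against 0.617% of all genes) and 0 higher, with a median of -0.38. Their mean difference from the WTAL mean was -0.28, 0.12 and 0.16 in the WTAL arrays and -0.16, -0.27 and -0.48 in the Dgat1-/-AL arrays. WTAL replicate 1 thus lay below Dgat1-/-AL replicates 1 and 2 for this list, and the groups overlapped. Adgre1, the common surface antigen of mouse macrophages, read 7.95, 8.80 and 8.99 against 7.85, 7.85 and 7.49, so that WTAL replicate 1 lay just above the Dgat1-/-AL arrays (-0.85 ± 0.27). Clec4f, a lectin specific to Kupffer cells, read 9.44, 9.73 and 9.63 against 8.97, 9.23 and 9.10 with no overlap (-0.50 ± 0.14). C1qa, a chain of complement C1q made by macrophages, read 9.02, 9.68 and 9.70 against 9.01, 8.79 and 8.75 (-0.61 ± 0.19), with WTAL replicate 1 and Dgat1-/-AL replicate 1 next to each other. Not all markers moved alike. Vsig4, Csf1r and Siglec1 gave 0.00 ± 0.24, 0.31 ± 0.27 and 0.23 ± 0.14, and Cd163 gave 0.43 ± 0.26.

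The calls of Clec4f, C1qa, Ly86 and Ms4a6c held without any 1 array. Those of Clec4f and Ms4a6c ended without both doubted arrays (-0.37 and -0.52). That of Adgre1 ended without WTAL replicate 3, Dgat1-/-AL replicate 3 or the array labelled WTAL replicate 2 (-1.16 to -0.65), that of C1qb without the same arrays (-0.65 to -0.37), and that of Ms4a7 without WTAL replicate 3 (-0.35). The number of markers called lower was 5 without the array labelled WTAL replicate 2, 11 without Dgat1-/-AL replicate 1 and 4 without both. It was 13 without WTAL replicate 1 and 4 without WTAL replicate 3. That genes of inflammation and immune response were lower was known from earlier results on these same arrays. The counts of this list and of the immune lists below are thus not independent evidence of it.

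A wider list of NADPH oxidase subunits and phagocyte or leukocyte genes had 13 of 33 called lower (39.4%, against 0.617% of all genes). It had 0 called higher and a median of -0.32. Its mean difference was -0.14, -0.01 and 0.15 in the WTAL arrays and -0.26, -0.28 and -0.37 in the Dgat1-/-AL arrays. Here the groups did not overlap, and for 16 of the 33 genes all Dgat1-/-AL arrays lay below all WTAL arrays. Over all genes this held for 3.76%. Cybb and Cyba, the membrane subunits of the phagocyte NADPH oxidase, read 9.0, 9.09 and 9.35 against 8.72, 8.62 and 8.17 (-0.64 ± 0.21) and 7.96, 8.39 and 8.42 against 7.52, 7.72 and 7.91 (-0.54 ± 0.17). Cd52, a small surface glycoprotein of leukocytes, read 7.48, 7.22 and 7.67 against 6.67, 6.78 and 6.79 (-0.71 ± 0.12). Cd53, a tetraspanin of leukocytes, read 8.41, 8.41 and 8.79 against 7.72, 8.09 and 7.66 (-0.71 ± 0.21). Lgals1, a galectin of leukocytes and mesenchymal cells, had the largest value of the list, reading 9.16, 8.79 and 9.67 against 7.56, 8.40 and 8.67 (-1.0 ± 0.30). The list had 11 genes called lower without the array labelled WTAL replicate 2, 12 without Dgat1-/-AL replicate 1 and 11 without both, and from 8 to 15 over all arrays left out singly, the 8 being without WTAL replicate 3. Of the genes named, the call of Cybb ended on dropping Dgat1-/-AL replicate 3 or WTAL replicate 3 (-0.75 to -0.48). The calls of the other 4 held without any 1 array, and that of Cyba ended without both doubted arrays (-0.37).

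Leukocyte genes outside these lists gave fewer calls. Of 17 markers of B cells and plasma cells, 16 had a log2 fold change below 0 but only Jchain, which joins polymeric immunoglobulins, was called. Jchain read 7.85, 6.11 and 6.37 in WTAL livers and 4.47, 5.97 and 5.34 in Dgat1-/-AL livers, a wide spread in both groups with no overlap (-1.51 ± 0.49). Of 20 markers of T and NK cells 16 were below 0, and Ccl5, a chemokine, was called (-0.54 ± 0.21). That call ended on dropping any Dgat1-/-AL array, or WTAL replicate 3 (-0.74 to -0.27). The MHC class II list, which presents antigen to T cells, had 3 of 9 genes called lower (33.3%, against 0.617% of all genes). Its mean difference was -0.04 in Dgat1-/-AL replicate 1 and -0.19 in the array labelled WTAL replicate 2, so the groups overlapped. H2-Ab1 read 8.82, 8.43 and 9.07 against 8.33, 7.87 and 8.30 (-0.60 ± 0.17). The array labelled WTAL replicate 2 lay just above the highest Dgat1-/-AL array for that gene. The groups overlapped for the others, H2-Aa (-0.60 ± 0.22) and H2-Eb1 (-0.45 ± 0.19), and their calls held in 5 and 1 of the 9 fits that dropped an array (-0.82 to -0.38 and -0.67 to -0.24). The list kept 3 calls on dropping the array labelled WTAL replicate 2 or both doubted arrays, 2 on dropping Dgat1-/-AL replicate 1, and 1 on dropping any other WTAL or Dgat1-/-AL array. Of 37 interferon-stimulated genes 5 were called lower (13.5%, against 0.617% of all genes) and 0 higher. Of the 37, 30 were below 0, with a median of -0.15. The number called lower was 4 on dropping the array labelled WTAL replicate 2, 5 on dropping Dgat1-/-AL replicate 1 and 6 on dropping both. It ran from 2 (Dgat1-/-AL replicate 3 dropped) to 9 (Dgat1-/-AL replicate 2 dropped). The mean difference of this list was -0.04, -0.09 and 0.13 in the WTAL arrays and -0.25, -0.05 and -0.33 in the Dgat1-/-AL arrays. Dgat1-/-AL replicate 2 thus lay within the WTAL range. Psmb8, an immunoproteasome subunit, read 8.51, 8.28 and 8.84 against 7.74, 7.96 and 8.01 with no overlap (-0.64 ± 0.16). Besides Psmb8 and Ifi27l2a, these were Bst2 (-0.47 ± 0.12), Irf7 (-0.43 ± 0.18) and Oasl2 (-0.40 ± 0.12), all of which lost the call on dropping Dgat1-/-AL replicate 3, Oasl2 also on dropping the array labelled WTAL replicate 2, and Irf7 also on dropping that array, Dgat1-/-AL replicate 1, WTCR replicate 1 or WTAL replicate 3 (-0.62 to -0.31). Among 28 chemokines Ccl3 (-0.56 ± 0.15), Ccl5 and Cxcl13 were called lower (10.7%, against 0.617% of all genes). Cxcl13, which attracts B cells, rested on 1 WTAL array at 9.36 against 6.68 and 7.58 in the others (-1.33 ± 0.56). Cxcl13 was called in 1 of the 9 fits that left out an array, that without WTAL replicate 1. Its value was -0.59 without WTAL replicate 3. The chemokines called lower numbered 3 on dropping the array labelled WTAL replicate 2, 2 on dropping both doubted arrays, and 1 on dropping Dgat1-/-AL replicate 1, Dgat1-/-AL replicate 3 or WTAL replicate 3. Of 15 neutrophil markers 0 were called, where 0.502% of all genes were called higher and 0.617% lower. Cfp, the complement regulator properdin, which phagocytes secrete, read 8.57, 9.38 and 9.53 against 8.39, 8.27 and 8.11 (-0.91 ± 0.25).

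Markers of sinusoidal endothelial cells split into genes that were higher and genes that were lower. Of 18 measured, 6 were called higher (33.3%, against 0.502% of all genes) and 3 lower (16.7%, against 0.617%), with a median of 0.34. The mean difference from the WTAL mean was -0.15, 0.04 and 0.11 in the WTAL arrays and 0.38, 0.30 and 0.07 in the Dgat1-/-AL arrays. Dgat1-/-AL replicate 3 thus lay below WTAL replicate 3 for this list, and the groups overlapped. Stab1 and Stab2, the scavenger receptors stabilin-1 and stabilin-2, read 6.56, 6.92 and 6.92 in WTAL livers against 8.14, 7.53 and 7.27 in Dgat1-/-AL livers (0.85 ± 0.23) and 7.71, 7.85 and 7.87 against 8.81, 8.43 and 8.15 (0.65 ± 0.21). Flt4, the receptor VEGFR3, read 5.54, 6.09 and 5.85 against 6.85, 6.55 and 6.18 (0.70 ± 0.19). In these 3 genes Dgat1-/-AL replicate 1 was the highest and replicate 3 the lowest of its group, and no array overlapped. Dnase1l3, a secreted nuclease, read 7.89, 8.41 and 8.49 against 9.08, 9.20 and 9.03 (0.84 ± 0.27), with the Dgat1-/-AL arrays close together. Bmp2, the endothelial signal that induces hepcidin in hepatocytes, read 7.10, 6.72 and 7.06 against 7.20, 7.79 and 7.52 (0.55 ± 0.15), here with Dgat1-/-AL replicate 1 the lowest. Cdh5, the cadherin of endothelial junctions, gave 0.39 ± 0.13, and its call ended without WTAL replicate 1 (0.34) or Dgat1-/-AL replicate 1 (0.36) or 2 (0.36).

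In the other direction Clec4g, a lectin of these cells and 1 of the brightest genes of the list, read 11.43, 11.63 and 11.56 in WTAL livers and 10.97, 11.11 and 10.84 in Dgat1-/-AL livers (-0.57 ± 0.12). A second Clec4g probe set at signals of 4.40 to 4.85 was not called (0.02 ± 0.12). Lyve1, the hyaluronan receptor, read 6.60, 6.60 and 6.97 against 5.89, 6.41 and 5.95 (-0.64 ± 0.15), and Esm1, a secreted proteoglycan of endothelium, read 5.38, 5.67 and 5.80 against 4.78, 5.07 and 4.66 (-0.78 ± 0.14). The groups did not overlap for any of the 3. Pecam1, which all endothelial cells express, gave 0.11 ± 0.08 and Oit3 gave 0.02 ± 0.19. Apart from that of Cdh5, the calls of these markers held without any 1 array. That of Stab2 ended without both doubted arrays (0.50). On dropping the array labelled WTAL replicate 2 the list had 6 called higher, on dropping Dgat1-/-AL replicate 1 it had 5, and on dropping both it had 4, with 3 called lower each time. Among genes of vessels outside the list, chosen after their values were seen, Ptprb, an endothelial phosphatase, read 8.43, 8.41 and 8.51 against 9.23, 9.16 and 9.07 (0.71 ± 0.14), and Plxnd1, a plexin, read 6.38, 6.50 and 6.33 against 7.29, 7.03 and 6.92 (0.68 ± 0.17).

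**Figure D4:**
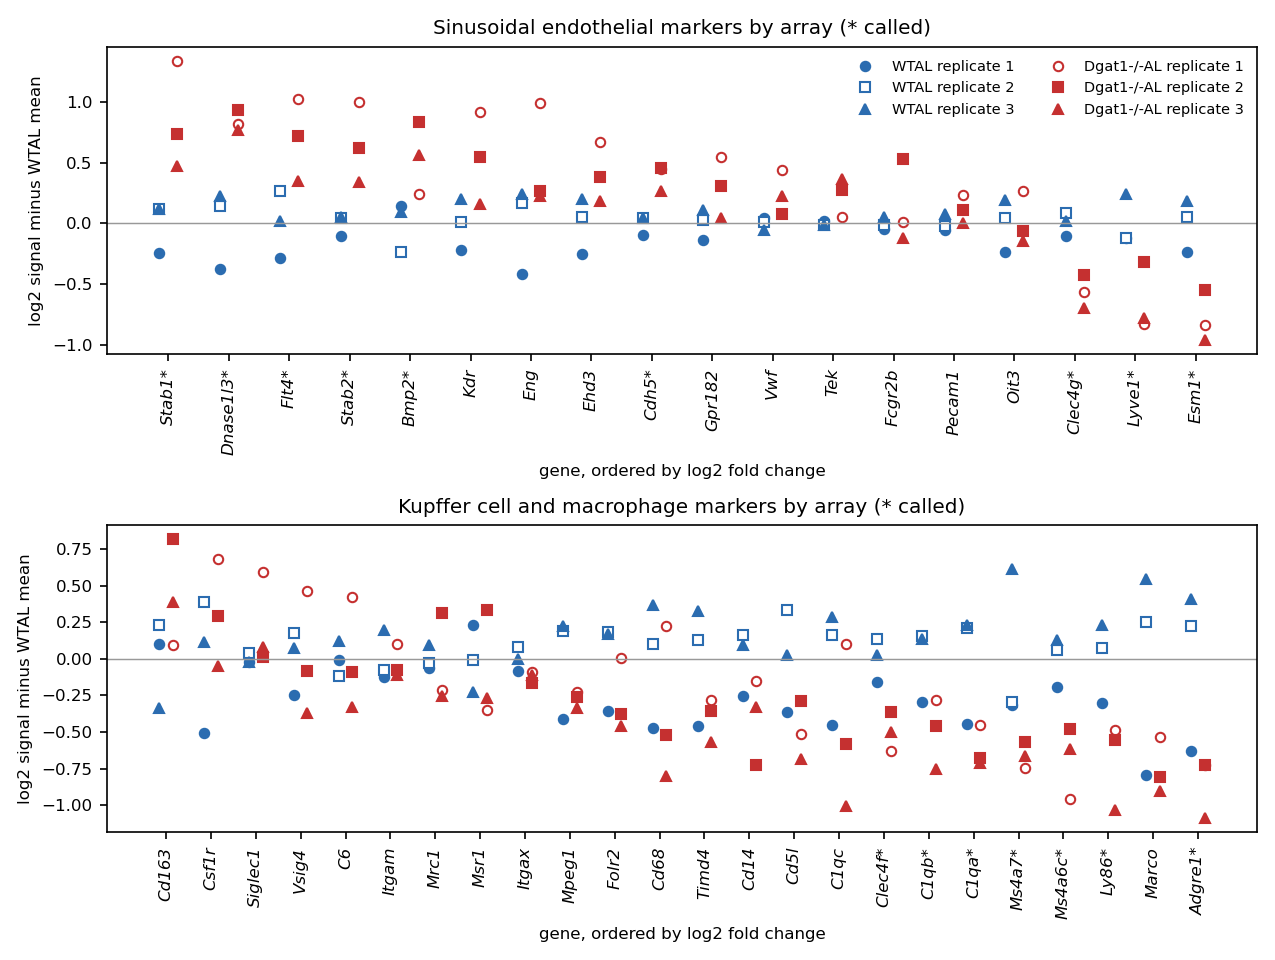
Log2 signal minus the WTAL mean (y axis) of each measured marker of sinusoidal endothelial cells (top) and of Kupffer cells and macrophages (bottom), ordered by log2 fold change (x axis). Each point is 1 array, blue for WTAL and red for Dgat1-/-AL, with open symbols for the array labelled WTAL replicate 2 and Dgat1-/-AL replicate 1, and stars mark called genes. The endothelial panel has 6 called genes at its left end and 3 at its right end, and the 7 called macrophage genes are all at the right end.

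Markers of other cell types gave few calls. With 0.502% of all genes called higher and 0.617% lower, lists of this size would seldom hold a call. Their counts of 0 thus do not tell whether a cell type was unchanged. Of 12 hepatocyte markers 0 were called, with a median of 0.02, and the mean difference was 0.24 in Dgat1-/-AL replicate 1 and between -0.03 and 0.05 in the other 5 arrays. Of 25 stellate cell and fibroblast markers Tcf21, a transcription factor of stellate cells, was called, reading 6.56, 6.52 and 6.44 against 5.52, 5.96 and 6.20 (-0.61 ± 0.16). Markers of cholangiocytes (9 measured), erythroid cells (5), pancreatic acinar cells (13) and adipocytes (12) had 0 calls, with medians from -0.06 to 0.08.

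Genes of BMP signaling and iron handling gave 1 call higher, Bmp2, and 3 lower of 30 measured. Besides Id3, Inhba, the activin A subunit, read 6.46, 6.82 and 6.84 in WTAL livers and 6.23, 6.08 and 5.98 in Dgat1-/-AL livers, with no overlap (-0.61 ± 0.12). Slc40a1, the iron exporter ferroportin, was lower (-0.55 ± 0.20), a call that ended on dropping Dgat1-/-AL replicate 3, WTAL replicate 3 or the array labelled WTAL replicate 2 (-0.72 to -0.44). Hamp, which encodes hepcidin, gave -0.29 ± 0.26, and Id1 gave -0.27 ± 0.17. Of 18 hepatocyte transcription factors Onecut1, which encodes HNF6, was lower and Bcl6 higher. Onecut1 read 7.53, 7.26 and 7.93 against 6.89, 6.55 and 6.69 with no overlap (-0.86 ± 0.17, and -1.11 without both arrays).

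In the retinoid list, which bears on the retinol-esterifying activity of DGAT1, 1 gene of 33 was called in each direction. Rdh11, a retinal reductase, read 9.60, 9.43 and 9.94 in WTAL livers and 9.16, 9.29 and 9.03 in Dgat1-/-AL livers (-0.50 ± 0.17). Rarres1, a gene induced by retinoic acid, read 7.81, 8.04 and 7.55 against 8.38, 8.04 and 8.41 (0.47 ± 0.16), so that Dgat1-/-AL replicate 2 met the array labelled WTAL replicate 2. The calls of both ended on dropping Dgat1-/-AL replicate 3 or WTAL replicate 3 (-0.61 to -0.36 for Rdh11 and 0.35 to 0.59 for Rarres1).

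Acute phase proteins, which hepatocytes secrete in inflammation, differed most between the Dgat1-/-AL mice themselves. Their mean difference from the WTAL mean over 33 genes was 1.16 in Dgat1-/-AL replicate 1, 0.29 in replicate 2 and -0.07 in replicate 3, against -0.13, -0.06 and 0.19 in the WTAL arrays. With all arrays 5 were called higher (15.2%, against 0.502% of all genes) and 0 lower. Saa2, a serum amyloid A, read 8.21, 7.88 and 8.72 in WTAL livers and 11.78, 10.95 and 8.58 in Dgat1-/-AL livers (2.17 ± 0.79), and Saa1 read 7.26, 6.15 and 7.07 against 10.14, 9.65 and 7.04 (2.11 ± 0.78). In both, replicates 1 and 2 were more than 2 log2 units above every WTAL array while replicate 3 lay within the WTAL range. Lcn2, which encodes lipocalin-2, read 12.38 in replicate 1 and 9.26 and 8.0 in replicates 2 and 3, against 7.33 to 8.17 in WTAL, and was not called (2.02 ± 0.95). Orm3 and Saa4 were called with no overlap (1.19 ± 0.49 and 0.98 ± 0.35), and Prg4 is also in this list. Without Dgat1-/-AL replicate 1, 2 genes of the list remained called, Prg4 at 0.98 and Saa4 at 0.57. On dropping the array labelled WTAL replicate 2 the count fell from 5 to 1, on dropping WTAL replicate 1 it was 2, and on dropping Dgat1-/-AL replicate 3 it was 9. Without both doubted arrays 1 was called higher and 1 lower. Leaving out other arrays ended the calls of Saa1 (Dgat1-/-AL replicate 2 or the array labelled WTAL replicate 2), Saa2 (the same and WTAL replicate 1), Saa4 (WTAL replicate 1 or the array labelled WTAL replicate 2) and Orm3 (these and WTCR replicate 2).

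Replicate 1 also differed outside this list. For 24 probe sets it lay more than 1.5 from the WTAL mean while replicates 2 and 3 were within 0.5 of it, 21 of them higher and 3 lower in replicate 1. Atp11a, a phospholipid flippase, read 9.04 in replicate 1 and between 6.56 and 6.75 in the other 5 arrays. Lrp1, an endocytic receptor, read 11.15 against 8.80 to 9.23, and Fn1, which encodes fibronectin, read 12.54 against 10.38 to 10.79. Slc13a5, a citrate transporter, read 7.31 against 5.52 to 5.59, and Steap4, a metalloreductase induced in inflammation, read 11.28 against 9.16 to 9.88. None of these genes was called with all arrays. The list of endoplasmic reticulum chaperones had a mean difference of 0.47 in replicate 1 and of -0.19 and -0.07 in replicates 2 and 3, with 0 of 20 genes called. Replicate 1 was also the highest Dgat1-/-AL array in the means of the endothelial and acute phase lists.

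**Figure D5:**
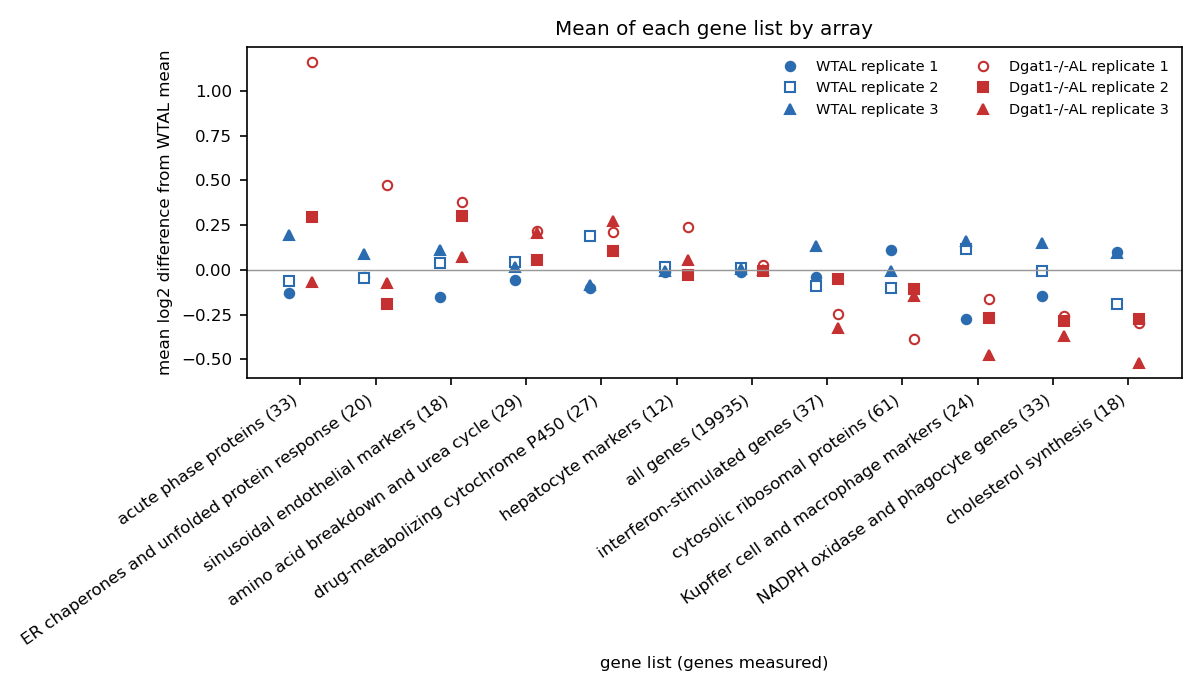
Mean over each gene list of the log2 signal minus the WTAL mean (y axis), with the number of genes measured in brackets (x axis), in each array. Blue points are WTAL and red points Dgat1-/-AL arrays, with open symbols for the array labelled WTAL replicate 2 and Dgat1-/-AL replicate 1. All 3 red points lie below all blue points for cholesterol synthesis and for phagocyte genes, and Dgat1-/-AL replicate 1 lies at 1.16 for acute phase proteins.

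Several further lists gave few or no calls. Of all genes, 0.502% were called higher and 0.617% lower, so lists of this size would seldom hold a call. Their counts of 0 thus do not tell whether these genes were unchanged. With all arrays there were 0 calls in 27 drug-metabolizing cytochrome P450 genes (median 0.18), 28 conjugating enzymes (0.15), 17 NRF2 targets (0.10), 17 clock genes (0.05), 33 genes of the respiratory chain and ATP synthase (0.08), 22 genes of phospholipid metabolism (0.02), 20 diacylglycerol kinases and lipases, and 17 secreted hepatokines (0.04). For the P450 genes 23 of 27 log2 fold changes were above 0, against 10110 of 19935 over all genes. Their mean difference was 0.19 in the array labelled WTAL replicate 2 and 0.11 in Dgat1-/-AL replicate 2, so the groups overlapped. Among 31 lysosome and autophagy genes Ctsl, which encodes cathepsin L, was called higher (0.39 ± 0.14), and among 33 cell cycle genes Ccnd1, which encodes cyclin D1, was called lower (-0.49 ± 0.18). The Ctsl call ended on dropping Dgat1-/-AL replicate 1 or WTAL replicate 1 (0.24 to 0.52), and the Ccnd1 call on dropping Dgat1-/-AL replicate 1 or 3, WTAL replicate 3 or the array labelled WTAL replicate 2 (-0.63 to -0.35).

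Cytosolic ribosomal protein genes, a group formed after the values were seen, had 57 of 61 log2 fold changes below 0 and a median of -0.17. Rps29, Rps12, Rps13 and Rps4x were called lower (6.56%, against 0.617% of all genes). Rps29 had the largest value (-0.64 ± 0.21), and its call ended without WTAL replicate 1 (-0.47). The number called lower went from 4 to 11 on dropping the array labelled WTAL replicate 2 and to 9 on dropping WTCR replicate 1, but to 0 on dropping WTAL replicate 1 and to 1 on dropping WTAL replicate 3. It was 3 on dropping Dgat1-/-AL replicate 1 and 7 on dropping both doubted arrays. The mean difference was -0.39 in Dgat1-/-AL replicate 1, -0.11 in replicate 2 and -0.15 in replicate 3, and 0.11, -0.10 and -0.01 in the WTAL arrays, so that the array labelled WTAL replicate 2 reached Dgat1-/-AL replicate 2. The calls of Rps12, Rps13 and Rps4x ended on dropping any of 3 or 4 arrays, WTAL replicates 1 and 3 among them. Many of these genes have near-identical pseudogenes, and their probe sets may read more than 1 locus. The 159 probe sets called lower held 13 of Rps12, 4 of Rps29, 3 of Rps13 and 3 of Rps4x, while each gene enters the counts by gene once. Of 53 small nucleolar RNA genes, likewise grouped afterwards, 4 were called lower (7.55%, against 0.617% of all genes) and 39 were below 0. The 4 were Snord14e, Snord42b, Snord96a and Snora31, each losing its call on dropping at least 1 array. The means of the list were -0.42, 0.20 and -0.18 in the Dgat1-/-AL arrays, which did not move together.

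The fit without both doubted arrays called 183 probe sets higher and 275 lower, of which 295 were not called with all arrays, while 106 of the calls with all arrays were lost. Lifr, the receptor of leukemia inhibitory factor, read 10.90, 10.36 and 12.24 in WTAL livers and 10.21, 10.52 and 10.30 in Dgat1-/-AL livers, and its value went from -0.82 to -1.16. Hspb1, a small heat shock protein, read 7.71, 6.41 and 7.63 against 6.77, 6.78 and 6.44, so that the array labelled WTAL replicate 2 was the lowest of all 6 arrays, and went from -0.59 to -1.06. Fabp2, the intestinal fatty acid-binding protein, went from -0.85 to -0.98, and Ifi30, a thiol reductase of antigen processing, from -0.49 to -0.80. In the other direction Sult2a3, a sulfotransferase, read 7.45, 10.26 and 9.76 against 8.95, 9.94 and 10.58, and went from 0.67 to 1.65, with WTAL replicate 1 the lowest array by far. Raet1d, a ligand of the NKG2D receptor, went from 0.53 to 1.26, Cdh19, a cadherin, from 0.60 to 1.01 and Defb1, a defensin, from 0.41 to 0.73. Serpinb1a, an inhibitor of neutrophil proteases, changed sign, from -0.10 ± 0.44 to 0.71, where Dgat1-/-AL replicate 1 read 9.19 and the other WTAL and Dgat1-/-AL arrays were all higher. This fit had 2 arrays per group.

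Genes beside Dgat1 on chromosome 15 were read as well, since a targeted allele can carry flanking sequence of another strain or disturb its neighbors. Of the 20 measured genes on each side, 40 in all, 0 were called with all arrays or in any of the 3 fits without doubted arrays. Their median log2 fold change was 0.06. Of all genes, 0.502% were called higher and 0.617% lower with all arrays. At these shares 40 genes would seldom hold a call, so the 0 does not tell whether the neighbors were disturbed.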

How the data were processed

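Liver RNA of 9 female mice was hybridised to 1 Affymetrix Mouse Gene 1.0 ST array each. The authors deposited log2 signals normalized by robust multi-array average (RMA), whose version and probe annotation are not given in the sources used here. The medians of the 9 arrays lay between 5.80 and 5.84. These values were not normalized again, and the number of arrays limits the precision.

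Symbols were taken from the platform annotation, and probe sets with several symbols (1605) or none (5430) were left out of the counts. In R 4.3.3, limma 3.58.1 fitted 1 mean for each of the 3 groups over all 9 arrays (lmFit, then eBayes). Calls required a fold above 1.3 together with p below 0.05 before adjustment, and p was adjusted by Benjamini-Hochberg over all 28815 probe sets. Errors printed as ± are the standard errors of the log2 fold change in this fit. Whether the mice came from separate litters is not given in the sources used here, so p-values measure only the spread between these mice. The code was tested on simulated data with known changes.

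For gene lists (37 pathways and 11 cell types) the probe set with the highest mean over the 9 arrays stood for its gene. Lists are described by counts and medians beside those of all genes, with no test. The members and lists were chosen with earlier results of these data known. Named genes were Dgat1, Dgat2, the 12 that rose most and the 12 that fell most among called probe sets with no overlap between groups, up to 6 called members of each list, the 8 largest in each direction among those called only without both doubted arrays, and up to 10 in which Dgat1-/-AL replicate 1 stood apart. Other genes are given as values or were chosen after their values were seen, as stated there. The alternatives left out each array in turn or both doubted arrays, used the WTAL and Dgat1-/-AL arrays alone, added the replicate number as a block, centred or quantile-normalized the arrays, left out low signals (mean log2 under 6), used eBayes with trend and robust or array weights, and took a fold of 1.5.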

Additional observations from a re-analysis of the deposited data

How the results depend on the processing

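No fit gave an adjusted p under 0.05 in limma. The smallest adjusted p was 0.961 with all arrays and 0.0547 without WTAL replicate 1, and at an unadjusted p under 0.05 there were 1316 probe sets with all arrays. Leaving out single arrays gave 100 to 269 probe sets called higher and 131 to 256 called lower, with a Dgat1 log2 fold change of -2.17 to -0.98. It gave 4 to 10 genes of cholesterol synthesis, 8 to 15 phagocyte genes and 4 to 13 Kupffer cell markers called lower, and 5 to 8 endothelial markers called higher. It also gave 2 to 9 interferon-stimulated genes and 0 to 11 ribosomal protein genes called lower. With both doubted arrays left out 183 were called higher and 275 lower, and 4 Kupffer cell markers were lower. At a fold of 1.5 there were 34 and 61. Array weights gave 11 Kupffer cell markers lower. Dgat1 lost its call with the 6 arrays alone (-1.41) and after quantile normalization (-1.40). Serpinb1a changed sign with both arrays out (0.71). The cause of these changes was not tested, beyond the smaller number of arrays.

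The same replicate numbers occur in each group, but same-numbered arrays did not deviate together (correlations -0.33, -0.09 and -0.23 over probe sets), so the numbers were not taken to pair the mice. With the replicate number as a block 121 probe sets were called higher and 157 lower. Of 116 named genes, 89 were called with all arrays and 37 of these under every alternative run. Low signals limit what can be read from genes near the bottom of the scale, such as Asns.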
